A study of Mus musculus with 9 samples.

Results

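The Wnt ligands, their Frizzled receptors and the secreted inhibitors of the Sfrp and Dkk families were followed across mouse embryonic stem cells (ESCs) and cell lines re-derived from them at 2 times after transplantation. Members were the genes of the array whose symbol in the deposited table begins with Wnt, Fzd, Sfrp or Dkk and then a digit. This rule gave 37 of 22360 gene symbols: 19 ligands, 10 receptors and 8 inhibitors, 4 of them Sfrp and 4 Dkk genes. They were measured by 38 of 28853 probe sets, and Wnt4, which had 2, was represented by the one with the higher mean over the 9 arrays.

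The study transplanted ESCs into mice, sorted green cells back out of the bone marrow and grew them into lines again. The D10 group is the line taken on day 10 after transplantation, the D5 group is the line taken on day 5, and the ESC group is the line that was transplanted, derived from 3.5-day blastocysts. All 3 groups carry the C57BL/6×Oct4/EGFP transgenic OG2 background, in which the Oct4 promoter drives a green fluorescent protein, and all were grown on feeder cells in the same kind of medium. Each group had 3 arrays, labelled biological replicates. Their titles speak of lines and a further label of 1 line in each group, so whether the replicates are separate derivations is not settled, and the p-values measure only the spread between these samples. D10 line and D5 line below stand for the samples of a group.

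Wnt proteins are lipid-modified secreted ligands that bind Frizzled receptors on the surface of a cell. With the co-receptors Lrp5 and Lrp6 the canonical branch stabilises beta-catenin, which then acts with TCF and LEF factors on target genes, while other branches run without beta-catenin through receptors such as Ror and Ryk. Sfrp proteins bind Wnt ligands outside the cell, and Dkk1, Dkk2 and Dkk4 bind the Lrp co-receptors. In mouse ESCs, beta-catenin signalling is known to help to keep the cells undifferentiated.

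D10 replicates 1 and 3 were nearly alike. Their difference had a standard deviation (SD) of 0.0686 over the 8292 brighter probe sets (mean above log2 6), and those of the remaining 8 pairs within a group had 0.154 to 0.201. Because they differed by less than the replicate noise, their mean was used as 1 sample, which leaves n = 2 for D10 and n = 3 for D5 and for ESC. The values are log2 expression, and the number of arrays limits their precision. A level above log2 3.68, the 95th percentile of 1397 probe sets for olfactory and vomeronasal receptors, is called above background here, by the mean over the 3 arrays of a group. All 6 ESC markers lay above background, and their summed linear intensity was 3191 to 3414 in D10, 3308 to 3395 in D5 and 3915 to 4198 in ESC arrays. Pou5f1 (Oct4), a core pluripotency factor, had a log2 change of -0.31 in D10 and -0.19 in D5, and neither passed (limma, adjusted p = 0.0796 and 0.302). Sox2, its partner, fell by 0.43 in D10 and by 0.35 in D5 on the log2 scale (limma, adjusted p = 0.0185 and 0.0439). Nanog fell by 0.43 in D5 (limma, adjusted p = 0.0156), and its log2 change of -0.18 in D10 did not pass (limma, adjusted p = 0.244). Of 18 alternative settings, the Sox2 call was lost in 5 in D10 and in 11 in D5, with a highest adjusted p of 0.0995 and 0.131, and the Nanog call in 5, with a highest of 0.0676.

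Compared with ESCs, the D10 line had higher levels of the ligand Wnt5a, the receptors Fzd1, Fzd3 and Fzd6 and the inhibitors Dkk2 and Dkk3, and a lower level of the inhibitor Sfrp1. Of 37 members, 6 rose, 1 fell and 30 did not pass an adjusted p of 0.05, which is 18.9% past the test against 8.65% of all 28853 probe sets and 12.5% of those above background. By direction, 5.32% of all probe sets rose and 3.33% fell. The median log2 change was 0.06 over the members and -0.02 over all probe sets. Before adjustment, 16 of the 37 (43.2%) had a limma p under 0.05, against 21.2% of all probe sets and 28.3% of those above background. Without D10 replicate 2, where the near-alike pair is the only D10 sample, 3 members passed (Wnt5a, Fzd1 and Dkk2). With D10 replicate 2 as the only D10 sample 4 passed, these and Sfrp1. In both of these settings a lone D10 sample is assumed to vary like the samples of the other groups.

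In the D5 line the same comparison gave fewer calls: Wnt5a, Fzd1 and Dkk2 rose, 0 members fell and 34 did not pass. That is 8.11% of the members against 3.87% of all probe sets and 5.7% of those above background, and by direction 2.36% of all probe sets rose and 1.5% fell. The median log2 change was -0.03 over the members and -0.01 over all probe sets. An unadjusted limma p under 0.05 was held by 11 of the 37 (29.7%), against 16.6% of all probe sets and 21.6% of those above background. Both comparisons use the same ESC arrays, so a member high in both is not seen independently in each. The authors' deposited table of 461 selected probe sets, 1.6% of all, holds 3 of the 37 members: Wnt5a, Fzd1 and Dkk2.

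**Figure D1:**
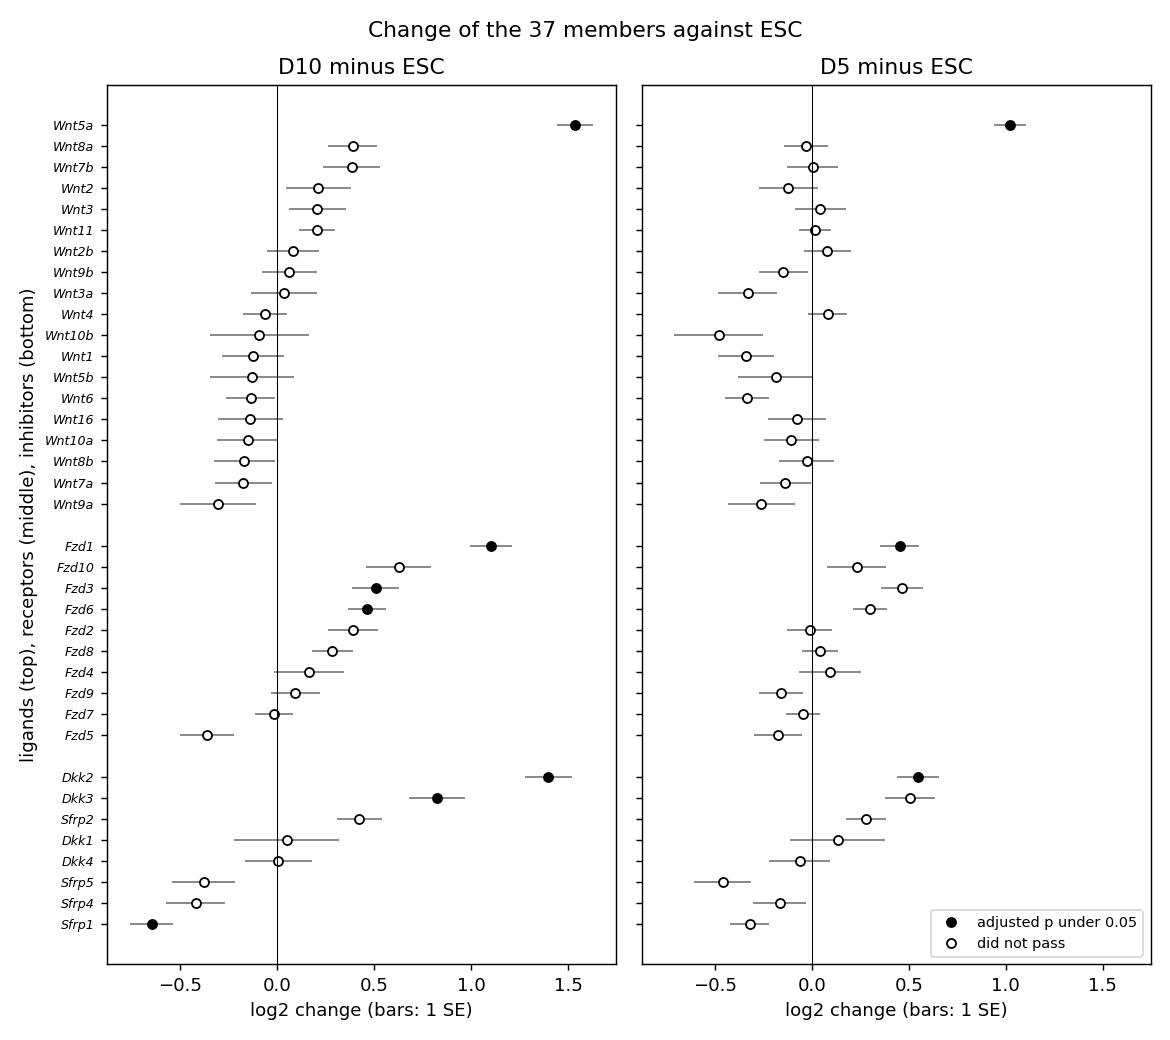
Log2 change (horizontal axis) of each of the 37 members in D10 (left) and D5 (right) against ESC, with bars of 1 standard error (SE), ligands on top, receptors in the middle and inhibitors below. Filled points passed an adjusted p of 0.05: 7 in D10, 6 of them above 0, and 3 in D5, all above 0.

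Fibroblast and stroma genes moved with these calls. Of 25 fibroblast and stroma markers, all above background, 24 rose in D10 and 18 in D5, with median log2 changes of 1.39 and 0.86. Their summed linear intensity was 10204 to 10673 in D10, 7098 to 7779 in D5 and 4212 to 4800 in ESC arrays, so the groups did not overlap. Thy1, a surface protein of fibroblasts, was 3.98-fold higher in D10 and 2.43-fold higher in D5, and Pdgfra, a growth factor receptor of mesenchymal cells, was 2.70-fold and 1.56-fold higher. All 3 lines were grown on feeder cells, and the part of fibroblast RNA in the changes of the Wnt members was not tested. In such bulk samples, more cells of a type and more RNA per cell cannot be told apart. Of 16 blood cell markers, 5 were above background by their mean over the arrays. Ptprc (CD45), which marks blood cells, was below background in every group. Cd34 and Runx1, which also mark other cells, rose in both lines. In each line the other 14 did not pass, and the median log2 change of the 16 was -0.04 in D10 and 0.03 in D5. The summed intensity of the blood markers was 360.4 to 377 in D10, 311 to 326 in D5 and 285 to 299.9 in ESC arrays. For 11 primitive and visceral endoderm markers, which include Pdgfra, it was 415 to 425 in D10, 347 to 372 in D5 and 302 to 323 in ESC. Of these, 3 rose and 1 fell in D10, and 2 rose and 1 fell in D5. For 8 endothelial markers it was 205 to 214 in D10, 177 to 196 in D5 and 210 to 245 in ESC. For 10 mesoderm and primitive streak markers it was 205 to 239, 192 to 236 and 189 to 195.

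Among the ligands, Wnt5a alone passed the test, in both lines. Wnt5a, a ligand known mostly for signalling without beta-catenin, had log2 values of 6.41, 6.38 and 6.42 in D10, 5.78, 5.94 and 5.94 in D5, and 4.81, 4.91 and 4.88 in ESC arrays. All D10 arrays lay above all D5 arrays, and all D5 arrays above all ESC arrays. The mean was 6.40 ± 0.02 in D10 (SD, n = 2), 5.89 ± 0.10 in D5 and 4.86 ± 0.05 in ESC (SD, n = 3 each). Against ESC this is 2.90-fold higher in D10 (log2 change 1.54, SE 0.09; limma, adjusted p = 8.31e-05) and 2.03-fold higher in D5 (log2 change 1.02, SE 0.08; limma, adjusted p = 0.000566). The 95% interval of the log2 change was 1.33 to 1.74 in D10 and 0.83 to 1.21 in D5.

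The other 18 ligands did not pass in either line. The share of ligands past the test was 5.26% in each line, against 8.65% of all probe sets in D10 and 3.87% in D5. The ligands' median log2 change was -0.06 in D10 and -0.11 in D5. A change above 0 was seen in 9 and 6 of the 19, against 12849 and 13546 of all 28853 probe sets. Wnt9b, which starts tubule formation in the kidney, had log2 values of 5.19, 5.63 and 5.48 in D10, 5.38, 5.02 and 5.42 in D5, and 5.39, 5.41 and 5.46 in ESC. Its groups overlapped, and the 95% interval of the log2 change against ESC was -0.26 to 0.39 in D10. Wnt7b, a ligand of lung and blood vessel development, had log2 values of 5.38, 5.42 and 5.33 in D10, 5.27, 5.04 and 4.71 in D5, and 5.02, 5.00 and 4.98 in ESC. Its D10 arrays lay above the ESC arrays, at a log2 change of 0.39 (SE 0.15), but the change did not pass (limma, adjusted p = 0.169).

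Wnt3, the ligand needed for the primitive streak in the mouse embryo, had a log2 change of 0.21 in D10 and 0.04 in D5 (limma, adjusted p = 0.504 and 0.920). Wnt3a, the ligand most used to stimulate beta-catenin signalling in culture, had 0.04 and -0.33 (limma, adjusted p = 0.945 and 0.331). The lowest and highest changes among the 18 were -0.30 for Wnt9a and 0.39 for Wnt8a in D10, and -0.48 for Wnt10b and 0.08 for Wnt4 in D5. The 4 pairs of ligand genes that are direct neighbours on a chromosome, Wnt6 with Wnt10a, Wnt3a with Wnt9a, Wnt9b with Wnt3 and Wnt10b with Wnt1, held no call. The second probe set of Wnt4 had a log2 change of -0.14 in D10 and -0.10 in D5, where the first had -0.06 and 0.08, and neither passed.

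D10 replicate 2 stood apart from the other D10 arrays for a number of ligands. Wnt5b, a close relative of Wnt5a, had log2 values of 4.40, 5.23 and 4.54 in D10, 5.05, 4.64 and 4.69 in D5, and 4.85, 5.00 and 5.09 in ESC. Wnt10b, known from fat and bone precursors, had 3.86, 4.58 and 3.97 in D10, 4.10, 3.52 and 3.96 in D5, and 3.97, 4.57 and 4.48 in ESC. In both genes D10 replicate 2 was the highest D10 array and lay above the highest ESC array. Wnt16, Wnt1 and Wnt8b were below background in every group, so their changes are not interpreted.

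**Figure D2:**
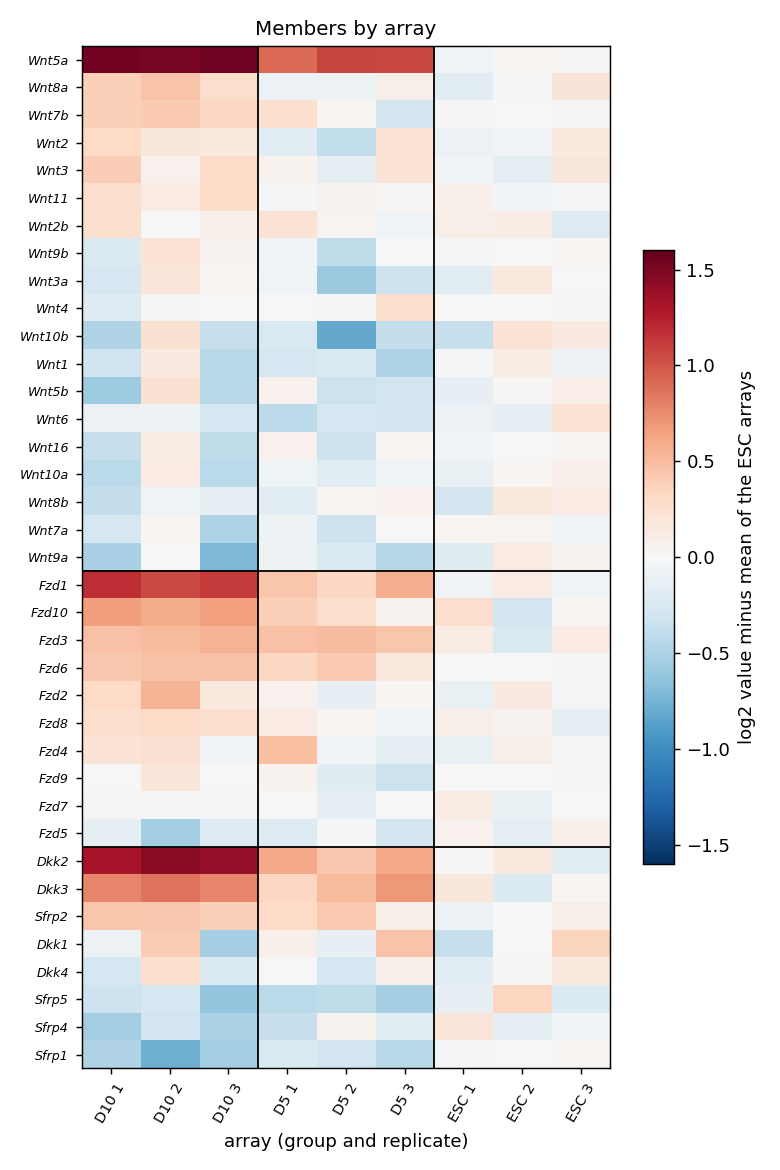
Each of the 37 members (rows: ligands, receptors and inhibitors, divided by lines) on each of the 9 arrays (columns, D10, D5 and ESC), as log2 value minus the mean of the ESC arrays, red for higher and blue for lower. Wnt5a, Fzd1, Dkk2 and Dkk3 are red on all D10 and D5 arrays, and Sfrp1 is blue on all of them.

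Of the 10 receptors, 3 rose in D10 and 1 in D5, and 0 fell. Of all 28853 probe sets, 5.32% rose and 3.33% fell in D10, and 2.36% rose and 1.5% fell in D5. Of those above background, 12.5% passed in D10 and 5.7% in D5. Their median log2 change was 0.34 in D10 and 0.07 in D5, with 8 and 6 of the 10 above 0. Over all 28853 probe sets, 12849 and 13546 were above 0. Fzd1, a receptor that can carry the beta-catenin signal, had log2 values of 6.86, 6.73 and 6.79 in D10, 6.12, 6.01 and 6.26 in D5, and 5.62, 5.81 and 5.60 in ESC arrays. The groups did not overlap. Fzd1 was 2.15-fold higher in D10 (log2 change 1.10, SE 0.11; limma, adjusted p = 0.00063) and 1.37-fold higher in D5 (log2 change 0.45, SE 0.10; limma, adjusted p = 0.0433). The D5 call was lost in 11 of 18 alternative settings, with a highest adjusted p of 0.150, while the D10 call was kept in all 18.

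Fzd6 and Fzd3, which work in planar cell polarity in the mouse, rose in D10 by smaller amounts. Fzd6 had log2 values of 6.95, 6.99 and 6.99 in D10, 6.84, 6.93 and 6.67 in D5, and 6.52, 6.53 and 6.50 in ESC. Its D10 and D5 arrays all lay above the ESC arrays, at log2 changes of 0.46 (SE 0.10) in D10 and 0.30 (SE 0.09) in D5, and only the D10 change passed (limma, adjusted p = 0.0214 and 0.113). Fzd3 had log2 values of 5.24, 5.27 and 5.33 in D10, 5.23, 5.26 and 5.21 in D5, and 4.89, 4.52 and 4.89 in ESC. Its log2 changes were 0.51 (SE 0.12) in D10 and 0.46 (SE 0.11) in D5, on either side of the threshold (limma, adjusted p = 0.0374 and 0.0568). The D10 call of Fzd3 was lost in 10 of 18 alternative settings, and that of Fzd6 in 5.

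Fzd7, a receptor known to be abundant in pluripotent cells, had log2 values of 8.54, 8.50 and 8.49 in D10, 8.51, 8.39 and 8.52 in D5, and 8.64, 8.41 and 8.52 in ESC. Its groups overlapped, and the 95% interval of the log2 change was -0.24 to 0.21 in D10 and -0.25 to 0.16 in D5. Fzd5, needed for yolk sac vessels in the mouse, had log2 values of 6.64, 6.24 and 6.58 in D10, 6.58, 6.76 and 6.50 in D5, and 6.85, 6.64 and 6.86 in ESC. Its D10 arrays lay below the ESC arrays, with a log2 change of -0.36 (SE 0.14) that did not pass (limma, adjusted p = 0.172).

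Fzd10, Fzd2 and Fzd8 had all D10 arrays above all ESC arrays without passing the test. Fzd10 had log2 values of 6.37, 6.29 and 6.36 in D10, 6.08, 5.95 and 5.76 in D5, and 5.98, 5.39 and 5.72 in ESC, a change of 0.63 (SE 0.17) in D10 (limma, adjusted p = 0.0562). Fzd2 and Fzd8 had changes of 0.39 and 0.28 in D10 and of -0.01 and 0.04 in D5 (limma, adjusted p = 0.111 and 0.156 in D10). Fzd9 had changes of 0.09 in D10 and -0.16 in D5. Fzd4 had group means near background, at log2 3.69 in D10 (replicates 1 and 3 averaged first), 3.62 in D5 and 3.53 in ESC. By the mean over the 3 arrays, Fzd4 was below background in every group.

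Of the 8 inhibitors, 2 rose and 1 fell in D10, and 1 rose in D5. Of all probe sets, 8.65% passed in D10 and 3.87% in D5, and of those above background 12.5% and 5.7%. Dkk2, which binds Lrp5 and Lrp6, had log2 values of 5.37, 5.49 and 5.46 in D10, 4.66, 4.48 and 4.67 in D5, and 4.08, 4.22 and 3.87 in ESC arrays. The groups did not overlap, with D10 highest. The mean was 5.46 ± 0.06 in D10 (SD, n = 2), 4.61 ± 0.11 in D5 and 4.06 ± 0.17 in ESC (SD, n = 3 each). Dkk2 was 2.64-fold higher in D10 (log2 change 1.40, SE 0.12; limma, adjusted p = 0.000322) and 1.46-fold higher in D5 (log2 change 0.55, SE 0.11; limma, adjusted p = 0.0291). The D5 call was lost in 7 of 18 alternative settings, with a highest adjusted p of 0.106.

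Dkk3, a divergent member of the family, had log2 values of 5.22, 5.31 and 5.22 in D10, 4.77, 4.94 and 5.13 in D5, and 4.63, 4.23 and 4.46 in ESC. All D10 and D5 arrays lay above all ESC arrays. The change was 1.77-fold in D10 (log2 change 0.83, SE 0.14; limma, adjusted p = 0.0094), and 0.51 (SE 0.13) on the log2 scale in D5, where it did not pass (limma, adjusted p = 0.0724). Without D10 replicate 2 the D10 change did not pass either (limma, adjusted p = 0.0779).

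Sfrp1, which binds Wnt ligands, went the other way. It had log2 values of 7.26, 6.95 and 7.19 in D10, 7.50, 7.44 and 7.29 in D5, and 7.70, 7.72 and 7.78 in ESC. All D10 arrays lay below all D5 arrays, and all D5 arrays below all ESC arrays. Sfrp1 was 1.57-fold lower in D10 (log2 change -0.65, SE 0.11; limma, adjusted p = 0.00865), and its change of -0.32 (SE 0.10) in D5 did not pass (limma, adjusted p = 0.135). Without D10 replicate 2 the adjusted p in D10 was 0.0652.

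Sfrp2, of the same family, had log2 values of 6.59, 6.58 and 6.52 in D10, 6.47, 6.57 and 6.24 in D5, and 6.05, 6.14 and 6.24 in ESC. Its D10 arrays lay above the ESC arrays, at a log2 change of 0.42 (SE 0.12) that did not pass (limma, adjusted p = 0.0597). Sfrp4 and Sfrp5 had their mean above background in the ESC group alone, with changes of -0.42 and -0.38 in D10 and -0.16 and -0.46 in D5, none of which passed. Dkk1 and Dkk4, both antagonists at the Lrp co-receptors, had changes of 0.05 and 0.01 in D10. The Dkk1 interval in D10 was wide, -0.57 to 0.67. Its group means were near background, at log2 3.75 in D10 (replicates 1 and 3 averaged first), 3.84 in D5 and 3.70 in ESC. By the mean over the 3 arrays, Dkk1 was below background in D10.

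**Figure D3:**
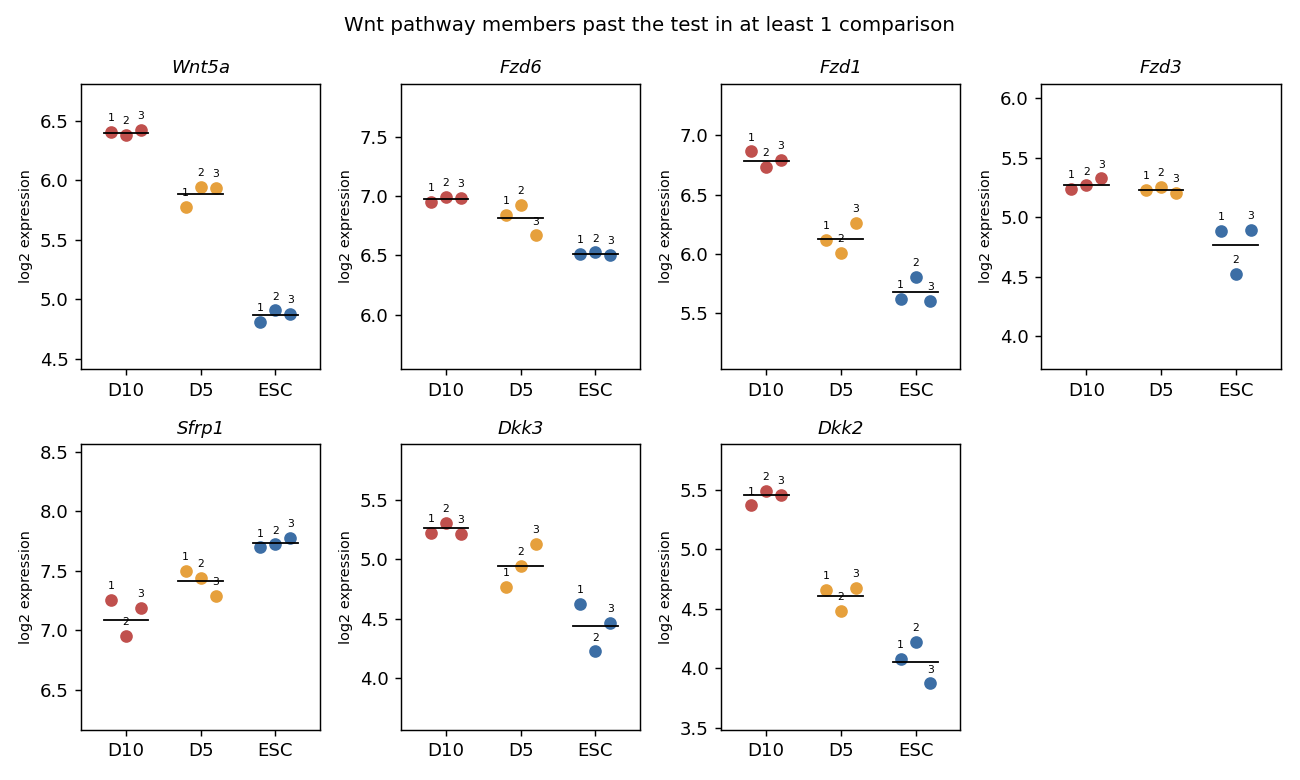
Log2 expression (vertical axes, each spanning the same range of log2 units) of the 7 members past the test in at least 1 comparison on each of the 9 arrays, with D10, D5 and ESC from left to right, the replicate number over each point and a line at the group mean (D10 with replicates 1 and 3 averaged first). Wnt5a, Fzd1 and Dkk2 form a staircase with D10 on top, and Sfrp1 runs the opposite way.

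Between the re-derived lines, 1 of 37 members passed: Dkk2 was 1.80-fold higher in D10 than in D5 (log2 change 0.85, SE 0.12; limma, adjusted p = 0.0466). That is 2.7% of the members against 0.215% of all probe sets (0.194% higher and 0.0208% lower) and 0.298% of those above background. In all, 62 probe sets passed. Wnt5a and Fzd1 had log2 changes of 0.51 (SE 0.09) and 0.65 (SE 0.11) and did not pass (limma, adjusted p = 0.0721 and 0.0627). Fzd6, Fzd3, Dkk3 and Sfrp1, past the test in D10 but not in D5 against ESC, had changes of 0.17, 0.04, 0.32 and -0.33 between the lines (limma, adjusted p = 0.653, 0.963, 0.532 and 0.341). Without adjustment, 9 of 37 members (24.3%) had a limma p under 0.05, against 9.75% of all probe sets and 11.9% of those above background. The members' median log2 change was 0.16, against -0.004 over all probe sets. A change above 0 was seen in 27 of 37 members and in 14060 of 28853 probe sets. The Dkk2 call was lost in 12 of 18 alternative settings, among them each of those that leave out 1 array.

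The arrays themselves were also compared without a model, with D10 replicates 1 and 3 counted as separate arrays. In 14 of 37 members all D10 arrays lay above all ESC arrays and in 4 below them, against 14.9% and 16.4% of all probe sets. For D5 against ESC the counts were 6 above and 4 below, against 10.7% and 11%. For D10 against D5 they were 12 above and 1 below, against 9.87% and 8.84%. Of the 18463 probe sets above background, 3686 lay above and 3898 below for D10 against ESC. For D5 against ESC these were 2711 and 2585, and for D10 against D5 they were 2281 and 2046.

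Promoter sequence from RefSeq (build GRCm38.p6, 250 bases before to 50 after the start of the gene) was held for 25 of the 37 members, as 28 promoters, and among the 7 members past the test for Dkk2 and Fzd1. These 2 are shown because both genes rose in both lines. Capitals mark matches to the letters TATAAAA, known as the TATA box, or to the letters GGGCGG, known as the GC box, both searched on both strands. The Dkk2 promoter lies at chr3:132085042-132085341 on the plus strand and the Fzd1 promoter at chr5:4758167-4758466 on the minus strand.
Dkk2: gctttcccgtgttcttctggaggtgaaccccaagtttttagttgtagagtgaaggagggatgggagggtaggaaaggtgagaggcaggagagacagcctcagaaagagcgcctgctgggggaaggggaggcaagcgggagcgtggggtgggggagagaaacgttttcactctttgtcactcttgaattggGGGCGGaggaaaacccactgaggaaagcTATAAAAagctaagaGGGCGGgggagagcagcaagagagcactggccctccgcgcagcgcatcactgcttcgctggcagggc
Fzd1: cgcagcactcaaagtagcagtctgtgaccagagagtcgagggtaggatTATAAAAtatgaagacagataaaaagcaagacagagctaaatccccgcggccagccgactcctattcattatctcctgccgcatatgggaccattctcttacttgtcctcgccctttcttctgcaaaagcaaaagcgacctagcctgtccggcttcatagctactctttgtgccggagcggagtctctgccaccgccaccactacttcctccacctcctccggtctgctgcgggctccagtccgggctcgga
In Dkk2, TATAAAA began at position -32 from the start and GGGCGG at positions -60 and -17. In Fzd1, TATAAAA began at position -202. The TCF/LEF motif was searched as CTTTGAA or CTTTGAT and also as CTTTGTA or CTTTGTT on both strands, and none of these was in the 2 windows. Over all 32851 promoters of the table, 5.48% held TATAAAA, 35.7% GGGCGG and 16.9% a TCF/LEF match, against 10.7%, 75.0% and 17.9% of the 28 member promoters. The median GC content was 68.7% in the member promoters and 52.7% in all promoters, with 57.7% in Dkk2 and 54.0% in Fzd1.

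Genes that act before and after the members were read from lists of the pathway. For the counts below, 8.65% of all probe sets passed in D10 and 3.87% in D5. Of those above background, 12.5% and 5.7% passed. Of the ligand secretion pair, Wls (Gpr177 in the files), the carrier that brings Wnt proteins to the cell surface, rose in both lines. Wls had log2 values of 7.09, 6.95 and 6.97 in D10, 6.50, 6.55 and 6.50 in D5, and 5.59, 5.40 and 5.24 in ESC, so that the groups did not overlap. It was 2.99-fold higher in D10 (log2 change 1.58, SE 0.11; limma, adjusted p = 0.000145) and 2.15-fold higher in D5 (log2 change 1.11, SE 0.10; limma, adjusted p = 0.000828). Porcn, the enzyme that attaches the lipid to Wnt proteins, had changes of -0.40 and -0.28 that did not pass (limma, adjusted p = 0.0538 and 0.178).

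Of 8 co-receptors and other Wnt receptors, 2 rose in D10 and 0 passed in D5. Ror1, a receptor for Wnt5a, had a log2 change of 0.67 in D10 and 0.59 in D5 (limma, adjusted p = 0.0356 and 0.0612), and Ptk7, a polarity co-receptor, had 0.55 and 0.13 (limma, adjusted p = 0.00833 and 0.521). The D10 call of Ror1 was lost in 8 of 18 alternative settings, with a highest adjusted p of 0.208, and its D5 change passed in 7. Without D10 replicate 2 neither D10 change passed (limma, adjusted p = 0.0825 for Ror1 and 0.0526 for Ptk7). Lrp5 and Lrp6 had changes of 0.18 and 0.13 in D10 and did not pass. Of 9 R-spondins, LGR receptors and receptor ubiquitin ligases, which tune how many Frizzled receptors stay at the surface, 0 passed in either line. By their mean over the arrays, 6 of the 9 were above background. Before adjustment, 1 of the 9 had a limma p under 0.05 in D10 and 2 in D5, against 21.2% and 16.6% of all probe sets.

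Of 10 other antagonists and Wnt-like ligands, 4 rose and 1 fell in D10, and 1 rose and 1 fell in D5. By their mean over the arrays, 6 of the 10 were above background. Notum, which removes the lipid of Wnt proteins, had log2 values of 5.37, 5.30 and 5.29 in D10, 5.61, 5.47 and 5.61 in D5, and 5.92, 6.13 and 6.15 in ESC. It fell by 0.75 in D10 and by 0.50 in D5 on the log2 scale (limma, adjusted p = 0.00272 and 0.0221). Igfbp4, which binds insulin-like growth factors and has also been described as a Wnt antagonist, was 2.33-fold higher in D10 and 1.96-fold higher in D5 (limma, adjusted p = 0.00019 and 0.000767). Apcdd1, a membrane antagonist, rose by 0.63 in D10 (limma, adjusted p = 0.0178). Frzb, a relative of the Sfrp genes, passed in D10 with log2 values of 4.11, 4.34 and 4.20 in D10, 3.38, 3.44 and 3.65 in D5, and 3.12, 3.55 and 3.48 in ESC (limma, adjusted p = 0.00865), where D10 alone was above background. Cer1 also passed in D10 but lay below background in every group. Without D10 replicate 2 the D10 calls of Apcdd1, Frzb and Cer1 were lost (limma, adjusted p = 0.0988, 0.0803 and 0.240), and the D5 call of Notum was lost in 5 of 18 alternative settings, with a highest adjusted p of 0.093.

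Of 24 intracellular pathway genes, all above background by their mean over the arrays, 0 passed with limma in either line. Before adjustment, 7 of the 24 had a limma p under 0.05 in D10 and 4 in D5. Such a p was held by 28.3% and 21.6% of the probe sets above background. Ctnnb1, beta-catenin itself, had log2 values of 9.26, 9.15 and 9.25 in D10, 9.13, 9.26 and 9.14 in D5, and 9.20, 9.18 and 9.20 in ESC, so that its groups overlapped. Lef1, a partner of beta-catenin, had changes of -0.32 in D10 and -0.37 in D5 that did not pass (limma, adjusted p = 0.269 and 0.197). Tcf7l1 (Tcf3 in the files), a repressor of the same family, had -0.35 in D10 (limma, adjusted p = 0.0520).

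Of 23 genes known as beta-catenin targets, 3 rose and 1 fell in D10, and 0 rose and 1 fell in D5. The median log2 changes were 0.08 and 0.11. By their mean over the arrays, 18 of the 23 were above background. The list shares genes with those above, among them Apcdd1 and Notum, and Dkk1 is also a member, so its counts are not a separate reading. Axin2, the most used readout of the pathway, had log2 values of 4.93, 5.12 and 4.84 in D10, 4.97, 4.55 and 4.48 in D5, and 4.52, 4.41 and 4.55 in ESC. Its D10 arrays lay above the ESC arrays, but the change of 0.51 (SE 0.15) did not pass (limma, adjusted p = 0.080). The D10 rises were Ccnd1 (0.51), a cyclin of the G1 phase, Ccn4 (1.05; Wisp1 in the files), a matrix-associated protein, and Apcdd1, and the fall in both lines was Notum (limma, adjusted p = 0.00723 for Ccnd1 and 0.0199 for Ccn4). Without D10 replicate 2 the change of Ccn4 did not pass (limma, adjusted p = 0.133). Ccnd1 and Ccn4 have many inputs besides beta-catenin.

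**Figure D4:**
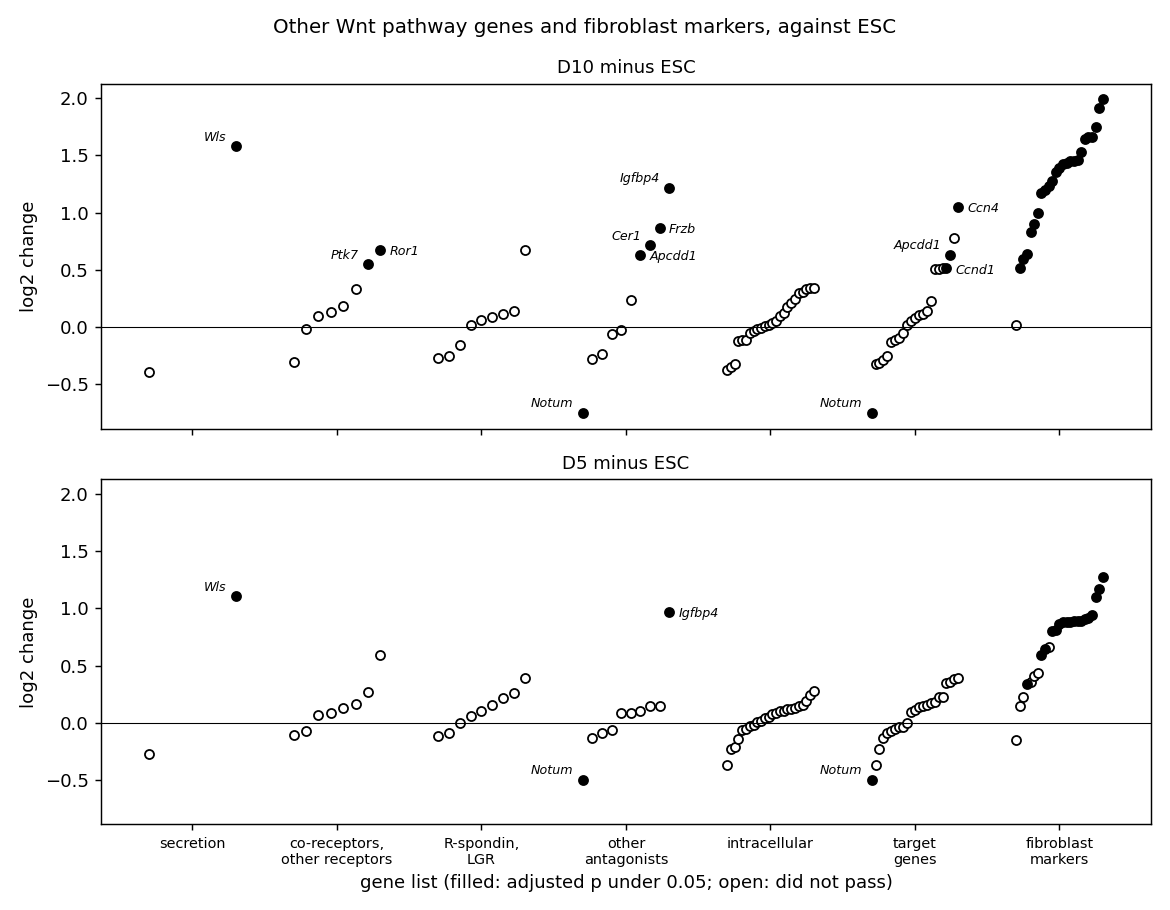
Log2 change of each gene of the 6 other pathway lists and of the fibroblast markers in D10 (top) and D5 (bottom) against ESC, sorted within each list, with filled points past an adjusted p of 0.05 and named outside the fibroblast list. In D10, 1 of 2 secretion genes, 2 of 8 co-receptors and other receptors and 0 of 9 R-spondin and LGR genes passed. Of 10 other antagonists 4 rose and 1 fell, of 23 targets 3 rose and 1 fell, and 0 of 24 intracellular genes passed. Of all probe sets, 8.65% passed in D10. In D5 the calls in the Wnt lists were Wls, Igfbp4 and Notum. Of 25 fibroblast markers, 24 passed in D10 and 18 in D5.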

How the data were processed

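Biotin-labelled cDNA of total RNA was hybridised to 9 Affymetrix whole-transcript arrays, per the labels' protocols. The deposited values are log2 expression, and the authors' short table also holds intensity values, whose log2 equals them within rounding. MAS5 is named in the submitters' processing notes, and how arrays were normalized against each other is not stated there. The members and gene lists were chosen with earlier results of these data known.

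All 28853 probe sets were fitted with limma 3.58.1 in R 4.3.3 (lmFit, eBayes) on the log2 values as deposited, without a filter, with a mean per group over 8 samples (D10 replicates 1 and 3 averaged) and 5 residual and 3.56 prior degrees of freedom. P-values were two-sided and adjusted over all probe sets (Benjamini-Hochberg, threshold 0.05). The fit was tested on simulated data. Groups came from the sample titles. Values by array are given for members past the test in any comparison and the 3 of each class with the highest mean; Wnt5b, Wnt10b, Fzd10, Wls, Notum and Frzb were added, and Porcn, Lrp5, Lrp6, Tcf7l1, Thy1, Pdgfra, Ptprc, Cd34 and Runx1 named, after their values were seen. Probe sets were named by RefSeq accession or symbol (18873 by accession). Alternatives were an intensity trend, quantile normalization, a filter on the dimmest 30% of probe sets, median centring, only the groups compared, array weights, 9 arrays counted separately, a replicate block, the mean of a gene's probe sets, leaving out each array, and, added after seeing the data, leaving out D10 replicates 1 and 3. Arrays have no read depth.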

Additional observations from a re-analysis of the deposited data

Results flagged for a closer look

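The change of Dkk2 between the re-derived lines stood out because the 2 lines differed in their change from ESC by the test of that difference itself: the log2 value was 0.85 higher in D10 than in D5 (limma, adjusted p = 0.0466), at 1.40 above ESC in D10 and 0.55 in D5. All D10 arrays lay above all D5 arrays. The adjusted p was close to the threshold, and the call was lost in 12 of 18 alternative settings. Among these were all settings that leave out 1 array.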

How the results depend on the processing

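With 8 samples, changes of members near the background level are poorly measured, and 4 of 37 members lie below it in every group by the mean over the arrays; Fzd4, among them, is above it in D10 when D10 replicates 1 and 3 are averaged first. The alternatives gave 2853 values over the 37 members and 16 genes of the lists. Of these, 0 reversed a called direction, 100 lost a call and 47 gained one. A further 14 stayed uncalled but changed sign, with a shift over the SD within groups. The other 2692 kept their side of the threshold without such a shift. Wnt5a kept its call against ESC in both lines, and Fzd1 and Dkk2 kept theirs in D10, under every alternative run, including those with 1 D10 sample, which is assumed to vary like the other groups. The other list genes, with the fibroblast markers, were fitted once, with no alternative. The cause of the changes below was not tested.

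Without the lowest 30% of probe sets the members called were 5 for D5 against ESC and 3 for D10 against D5, where 154 probe sets passed in all. With an intensity trend, 2 members passed for D10 against D5, and 1695 probe sets passed for D5 against ESC and 268 for D10 against D5. With only the groups compared, 1 member passed for D5 against ESC and 0 for D10 against D5, and 1582 probe sets passed for D10 against ESC and 2 for D10 against D5. With array weights, 0 members and 29 probe sets passed for D10 against D5. With 9 arrays counted separately, 5 members passed for D5 against ESC and 3 for D10 against D5, and 3977 probe sets passed for D10 against ESC and 517 for D10 against D5. Without D10 replicates 1 and 3, 4 members passed in D10 and 1 in D5 against ESC and 0 between the lines, and 1144 probe sets passed for D10 against ESC and 3 for D10 against D5. With the 99th percentile as background, 21 members were above it.

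Leaving out each array gave 3 to 7 members in D10 against ESC (3 without D10 replicate 2), 1 to 3 in D5 against ESC and 0 between the lines. The probe sets called were 1188 to 2507, 457 to 1091 and 4 to 56.

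Samples that share a replicate number did not deviate together: 2 of 9 pairs had r over 0.1, from -0.38 to 0.30, and 1 of 9 arrays correlated best with its own number. The replicate block was fitted with all 9 arrays counted separately. With it, 9 members passed in the D10 and 2 in the D5 line against ESC, and 3 members and 193 probe sets passed for D10 against D5. The 9 arrays without the block gave 10, 5 and 3 members in these comparisons.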
